A study of Mus musculus with 6 samples.

Results

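The genes described here are 9 of the 54347 gene rows in a table of transcript levels from cultured mouse microglia: the matrix metalloproteinase genes Mmp2, Mmp8, Mmp12, Mmp13, Mmp14, Mmp19 and Mmp27, the related protease gene Adamts1, and the inhibitor gene Timp2. They were taken by symbol, and each symbol stood on 1 row. The set was chosen by measured values, since the levels of these genes in both genotypes were known when it was drawn up. The difference between genotypes is therefore given for the 9 genes as a description, with no test.

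The libraries come from neonatal microglia of C57BL/6 pups aged 2 to 3 days, 3 of genotype Plcg2+/+ and 3 of genotype Plcg2-/-, which were littermates. Both genotypes were grown in mixed glial culture with 10% serum and the myeloid growth factor GM-CSF at 5 ng/mL, shaken off on day 12 to 13, and kept for at least 72 h in serum-free macrophage medium to which 1% serum and GM-CSF at 0.5 ng/mL had been added. Plcg2 encodes phospholipase C gamma 2, a signalling enzyme of immune cells. How the allele was made, and whether a library holds the cells of 1 pup or of several, is unknown, since the sources used here do not say. Levels are TPM, which compare genes per transcript length and add up to the same total in each library. The labels state a nominal depth of about 20000000 reads for each library. TPM do not carry the reads assigned to a gene, so the count behind each value is unknown. Single libraries are named by genotype and replicate number.

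Matrix metalloproteinases are zinc enzymes that cut collagens, elastin and other proteins of the extracellular matrix, as well as cytokines and surface receptors. They are made as inactive precursors whose propeptide must be removed, and tissue inhibitors of metalloproteinases (TIMPs) bind and block the active enzymes. Mmp12 encodes macrophage metalloelastase, Mmp8 and Mmp13 encode collagenases, Mmp2 encodes a gelatinase, and Mmp14 encodes a membrane-anchored enzyme that activates the Mmp2 precursor together with Timp2. In the brain, these proteases are known for their action on the perineuronal matrix and the blood-brain barrier, and microglia are 1 of their sources.

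Plcg2 itself stood at 45.2, 39.7 and 54.9 TPM in the Plcg2+/+ libraries and at 16.1, 16.7 and 16.1 TPM in the Plcg2-/- libraries, so transcript of the gene remained in the knockout. Each library had 20102 to 21598 genes above 0. Of 12 microglial markers, 10 were above 5 TPM in at least 1 library, while Tmem119 and Cx3cr1 reached at most 1.47 and 2.92 TPM. Fcrls was above 5 TPM only in the knockout, with 2.474 to 3.365 TPM in Plcg2+/+ and 28.42 to 53.64 TPM in Plcg2-/- libraries. P2ry12 had 2.196 to 9.294 TPM in Plcg2+/+ and 18.9 to 27.66 TPM in Plcg2-/- libraries. Trem2 went the other way, with 888.6 to 1538 TPM in Plcg2+/+ and 250.7 to 539.7 TPM in Plcg2-/- libraries. Mitochondrially encoded transcripts took 13.6 to 17.3% of all TPM in Plcg2+/+ and 5.00 to 8.68% in Plcg2-/- libraries. Xist, which is expressed from the inactive X chromosome of females, stood at 50.5, 0.747 and 1.02 TPM in Plcg2+/+ 1 to 3 and at 18.4, 49.4 and 40.2 TPM in Plcg2-/- 1 to 3. The Y-linked genes Ddx3y, Eif2s3y, Kdm5d and Uty summed to 0.371, 107 and 112 TPM in Plcg2+/+ 1 to 3 and to 58.6, 0.783 and 0.994 TPM in Plcg2-/- 1 to 3. Plcg2+/+ 1 was thus the Plcg2+/+ library with a female-type Xist level, Plcg2-/- 1 had an intermediate one, and the sex of the pups was not balanced between the genotypes. The part of sex and of the mitochondrial share in the differences below was not tested beyond the values given with them.

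Mmp12 was the most abundant of the 9 genes in every library. It stood at 14169, 17487 and 10873 TPM in the Plcg2+/+ libraries and at 450, 576 and 778 TPM in the Plcg2-/- libraries. Every Plcg2+/+ value lay far above every Plcg2-/- value. Mmp12 was the 11th, 8th and 13th most abundant gene of all in Plcg2+/+ 1, 2 and 3, and held places 317, 235 and 168 in Plcg2-/- 1, 2 and 3. The group means were 14176 ± 3307 and 601 ± 166 TPM (SD, n = 3 each), 23.6-fold lower in Plcg2-/-, and the difference was -4.57 ± 0.26 (SE) on the log2(TPM + 1) scale. Libraries with the same number differed by -4.97, -4.92 and -3.80 on that scale. In Plcg2+/+ 1, whose Xist level was like that of Plcg2-/- 2 and 3, Mmp12 lay between the other Plcg2+/+ libraries. Adamts1, Mmp13 and Mmp19 were higher in Plcg2+/+ 1 than in the other Plcg2+/+ libraries. Nothing about sex is read from a single library.

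Adamts1, which encodes a secreted protease that cuts the proteoglycans aggrecan and versican, was the next in size of difference. It stood at 44.8, 34.5 and 18.8 TPM in Plcg2+/+ and at 2.198, 2.87 and 2.61 TPM in Plcg2-/- libraries. The 3 Plcg2+/+ values were spread widely, with a coefficient of variation of 40.1% against 13.3% in Plcg2-/-, but the genotypes did not overlap. The mean was 32.7 ± 13.1 TPM in Plcg2+/+ against 2.56 ± 0.341 TPM in Plcg2-/- (SD, n = 3 each), 12.8-fold lower, a log2 difference of -3.16 ± 0.30 (SE).

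Mmp13, collagenase 3, an enzyme of cartilage and bone turnover, stood at 137, 90.1 and 115 TPM in Plcg2+/+ and at 18.5, 19.7 and 23.8 TPM in Plcg2-/- libraries. Its Plcg2-/- values lay close together and all below the Plcg2+/+ values, with means of 114 ± 23.6 and 20.6 ± 2.74 TPM (SD, n = 3 each) and a log2 difference of -2.40 ± 0.18 (SE). Mmp19, a secreted enzyme that cuts basement membrane proteins, stood at 143, 98.7 and 102 TPM in Plcg2+/+ and at 23.1, 21.4 and 35.3 TPM in Plcg2-/- libraries. These ranges did not overlap either, and the means were 115 ± 24.8 and 26.6 ± 7.56 TPM (SD, n = 3 each), a log2 difference of -2.08 ± 0.23 (SE). Mmp13 and Mmp19 thus had nearly the same mean as each other in Plcg2+/+, with overlapping ranges. Their ranges overlapped in Plcg2-/- too, but there Mmp19 was above Mmp13 in each library.

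Mmp27, a little-studied relative of the stromelysins, was the only member that was higher in the knockout without overlap. It stood at 4.94, 8.56 and 4.73 TPM in Plcg2+/+ and at 13.1, 22.3 and 19.9 TPM in Plcg2-/- libraries. All 3 Plcg2-/- values lay above all 3 Plcg2+/+ values, with means of 6.08 ± 2.15 and 18.5 ± 4.78 TPM (SD, n = 3 each), 3.04-fold higher, and a log2 difference of 1.47 ± 0.27 (SE). Its range in Plcg2-/- overlapped that of Mmp13, which was far more abundant than Mmp27 in Plcg2+/+.

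Mmp14, membrane type 1 metalloproteinase, depended on 1 library. It stood at 135, 146 and 137 TPM in Plcg2+/+ and at 61.0, 154 and 51.2 TPM in Plcg2-/- libraries. Plcg2-/- 2 was above all Plcg2+/+ libraries, whereas the other two Plcg2-/- libraries were below them all. The spread was 4.14% of the mean in Plcg2+/+ and 64.0% in Plcg2-/-. The log2 difference was -0.82 ± 0.38 (SE) over all libraries and -1.30 without Plcg2-/- 2.

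Mmp8, neutrophil collagenase, stood at 182, 221 and 208 TPM in Plcg2+/+ and at 220, 134 and 248 TPM in Plcg2-/- libraries. The genotypes overlapped, Plcg2-/- 2 was the lowest of all, and the log2 difference of -0.07 ± 0.23 (SE) became 0.20 without that library. Of 10 neutrophil markers, 3 (Ly6g, Elane and Retnlg) were at 0 in all libraries, and only S100a8 was above 5 TPM, at 17.4 to 74.7 TPM.

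Timp2, which encodes an inhibitor of metalloproteinases, stood at 156, 221 and 136 TPM in Plcg2+/+ and at 258, 255 and 195 TPM in Plcg2-/- libraries. Plcg2-/- 3 lay below Plcg2+/+ 2, so the genotypes overlapped, although each Plcg2-/- library was above the Plcg2+/+ library of the same number, by 0.72, 0.20 and 0.52 on the log2 scale. The means were 171 ± 44.4 and 236 ± 35.6 TPM (SD, n = 3 each), a log2 difference of 0.48 ± 0.21 (SE), or ± 0.14 (SE) with the replicate number as a block. Whether the numbers pair libraries is unknown, so nothing is read from the same-number differences or the smaller SE. Mmp2, a gelatinase of stromal cells, was barely above the limit for testing, at 1.87, 0.901 and 1.55 TPM in Plcg2+/+ and 0.882, 1.299 and 1.17 TPM in Plcg2-/- libraries. Its genotypes overlapped, with a log2 difference of -0.19 ± 0.24 (SE), and the 10 fibroblast and meningeal markers summed to 2.57 to 3.23 TPM in Plcg2+/+ against 0.926 to 4.198 TPM in Plcg2-/- libraries. Since these are bulk samples, fewer cells of a type and less RNA per cell cannot be told apart for any of these genes.

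**Figure D1:**
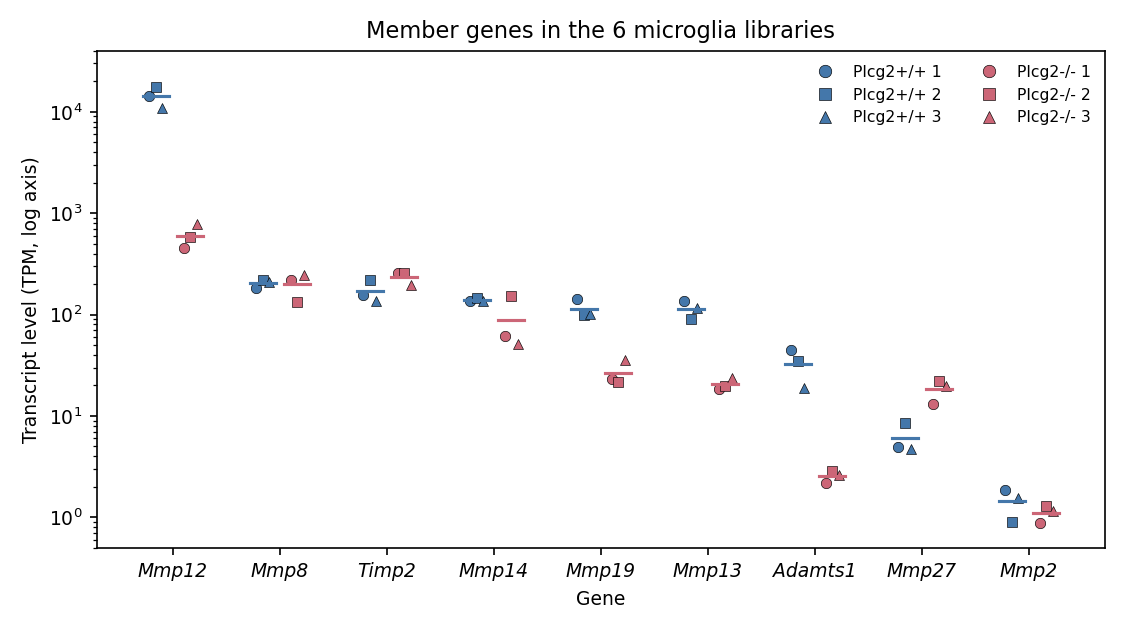
Level of each of the 9 genes in TPM (log axis) in the 3 Plcg2+/+ (blue) and 3 Plcg2-/- (red) libraries; symbols mark the replicate number and horizontal lines the means. Mmp12, Mmp19, Mmp13 and Adamts1 are lower and Mmp27 is higher in every Plcg2-/- library, while Mmp8, Timp2, Mmp14 and Mmp2 overlap.

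Counted over the set, all 3 Plcg2-/- values lay below all 3 Plcg2+/+ values for 4 of the 9 genes (Mmp12, Mmp13, Mmp19 and Adamts1), against 10.9% of the 12652 genes tested. They lay above for 1 gene (Mmp27), against 32.4%, and the genotypes overlapped for 4. Without regard to direction, 5 of 9 did not overlap, against 43.3% of all genes tested. The set was drawn up with these values in view, so nothing is read from these counts. The 9 genes had a mean of at least 1 TPM over the 6 libraries, the limit for testing; their median log2 difference was -0.82, beside 0.19 over all genes tested. The median over all genes moved to 0.03 after median-of-ratios scaling and each of the 9 differences moved down with it. Under that scaling the difference was -4.74 for Mmp12, 1.31 for Mmp27, 0.30 for Timp2 and -0.24 for Mmp8. Rescaling without mitochondrially encoded genes gave -4.70 for Mmp12, -3.32 for Adamts1, -2.53 for Mmp13 and -2.215 for Mmp19. It gave 1.36 for Mmp27, 0.35 for Timp2, -0.95 for Mmp14, -0.20 for Mmp8 and -0.27 for Mmp2. When the summed TPM of 4 Y-linked genes entered the fit as a covariate, as log2(sum + 1), the difference was -4.67 for Mmp12, -3.36 for Adamts1, -2.52 for Mmp13, -2.22 for Mmp19, 1.43 for Mmp27, 0.54 for Timp2, -0.90 for Mmp14 and -0.31 for Mmp2. Mmp8 changed sign under that covariate, to 0.03.

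The order of the levels differed between the genotypes. In Plcg2+/+ it ran from Mmp12 through Mmp8, Timp2, Mmp14, Mmp19, Mmp13, Adamts1 and Mmp27 to Mmp2, and the 5 genes from Mmp8 to Mmp13 overlapped with their neighbours in this order. In Plcg2-/- it ran from Mmp12 through Timp2, Mmp8, Mmp14, Mmp19, Mmp13, Mmp27 and Adamts1 to Mmp2. There, Timp2, Mmp8 and Mmp14 overlapped with their neighbours, as did Mmp19, Mmp13 and Mmp27.

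Summed over all Mmp genes (the 7 members and the 16 others listed), the level was 14758 ± 3306 TPM in Plcg2+/+ against 960 ± 187 TPM in Plcg2-/- (SD, n = 3 each), which is 1.48 ± 0.331% and 0.0960 ± 0.0187% of all TPM. Mmp12 made up 95.0 to 96.9% of this sum in Plcg2+/+ and 57.0 to 67.1% in Plcg2-/- libraries. Without Mmp12, the sum was 607, 568 and 571 TPM in Plcg2+/+ and 340, 355 and 382 TPM in Plcg2-/- libraries. Mmp8 took 30.0 to 39.0% of that remainder in Plcg2+/+ and 37.7 to 65.0% in Plcg2-/-, so these ranges overlapped. The collagenase pair shifted: the ratio of Mmp8 to Mmp13 was 1.33, 2.46 and 1.81 in Plcg2+/+ and 11.9, 6.80 and 10.5 in Plcg2-/- libraries.

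Timp2 made up 98.1 to 99.9% of the summed Timp level in every library. The ratio of summed Mmp to summed Timp transcript was 80.7 to 93.6 in Plcg2+/+ and 3.06 to 5.93 in Plcg2-/- libraries. Without Mmp12 it was 2.54 to 4.12 in Plcg2+/+ and 1.32 to 1.95 in Plcg2-/-. Mmp14 to Timp2, the pair that acts on the Mmp2 precursor, stood at 0.863, 0.659 and 1.01 in Plcg2+/+ and at 0.236, 0.605 and 0.263 in Plcg2-/- libraries. Plcg2-/- 2 came closest to the Plcg2+/+ libraries in that ratio. These are ratios of transcript levels and say nothing of active enzyme.

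**Figure D2:**
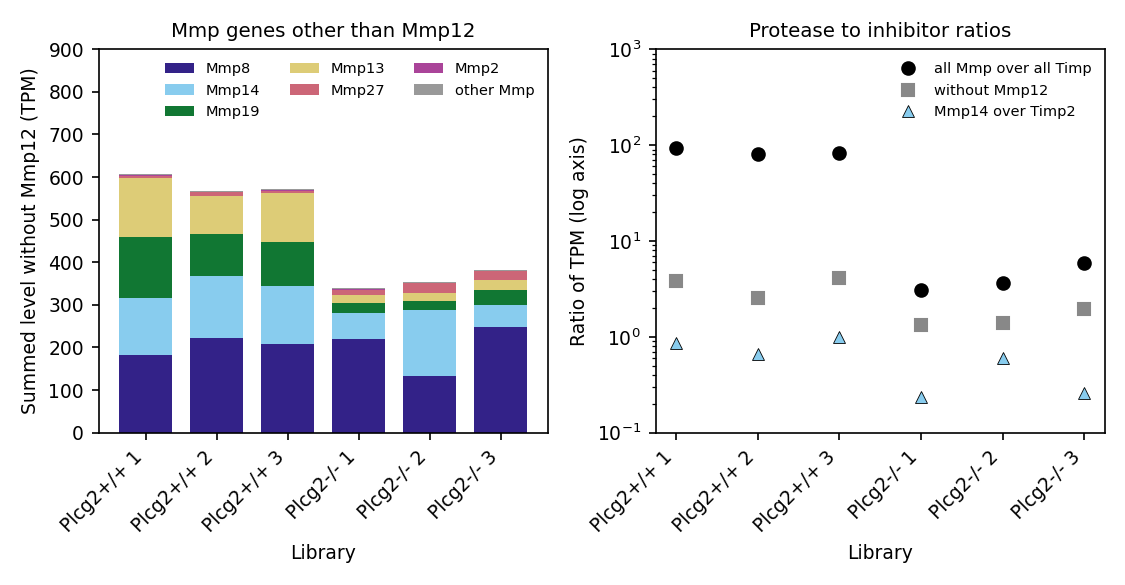
Left, stacked levels in TPM of the Mmp genes other than Mmp12 in each library; right, ratios of summed Mmp to summed Timp TPM, with and without Mmp12, and of Mmp14 to Timp2 (log axis). The stacks reach 568 to 607 TPM in Plcg2+/+ against 340 to 382 TPM in Plcg2-/- libraries, and the full ratio is 80.7 to 93.6 in the former and 3.06 to 5.93 in the latter.

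Of the 9 genes, 4 lie in a single cluster of 10 Mmp genes on GRCm38 chromosome 9 that spans 427.1 kb: Mmp13 (positions 7272514 to 7283331), Mmp12 (7344381 to 7369499), Mmp8 (7558456 to 7568485) and Mmp27 (7571396 to 7581885), all on the plus strand. Within the cluster the pattern was mixed. Mmp13 and Mmp12 at one end were lower in Plcg2-/-, Mmp8 overlapped, and Mmp27, which starts 2.91 kb after the end of Mmp8, was higher. The other 6 Mmp genes of the cluster, Mmp1b, Mmp3, Mmp1a, Mmp10, Mmp20 and Mmp7, reached at most 0.254 TPM in any library, and Mmp1a, Mmp1b and Mmp20 were listed at 0 in all. Mmp1b lies on the minus strand and overlaps the last 1261 bases of Mmp12. The flanking gene Dcun1d5 stood at 50.2 to 67.0 TPM in Plcg2+/+ against 59.1 to 67.4 TPM in Plcg2-/- (limma adjusted p = 0.706). Tmem123, at the other end, stood at 35.6 to 52.8 TPM in Plcg2+/+ against 54.8 to 75.0 TPM in Plcg2-/- (limma adjusted p = 0.0604). The remaining 5 genes are on other chromosomes: Mmp2 on 8 (92827291 to 92853420), Mmp14 on 14 (54431612 to 54445364), Mmp19 on 10 (128790910 to 128800824), Adamts1 on 16 (85793827 to 85803113) and Timp2 on 11 (118301069 to 118355740). Each of the 9 is protein coding.

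**Figure D3:**
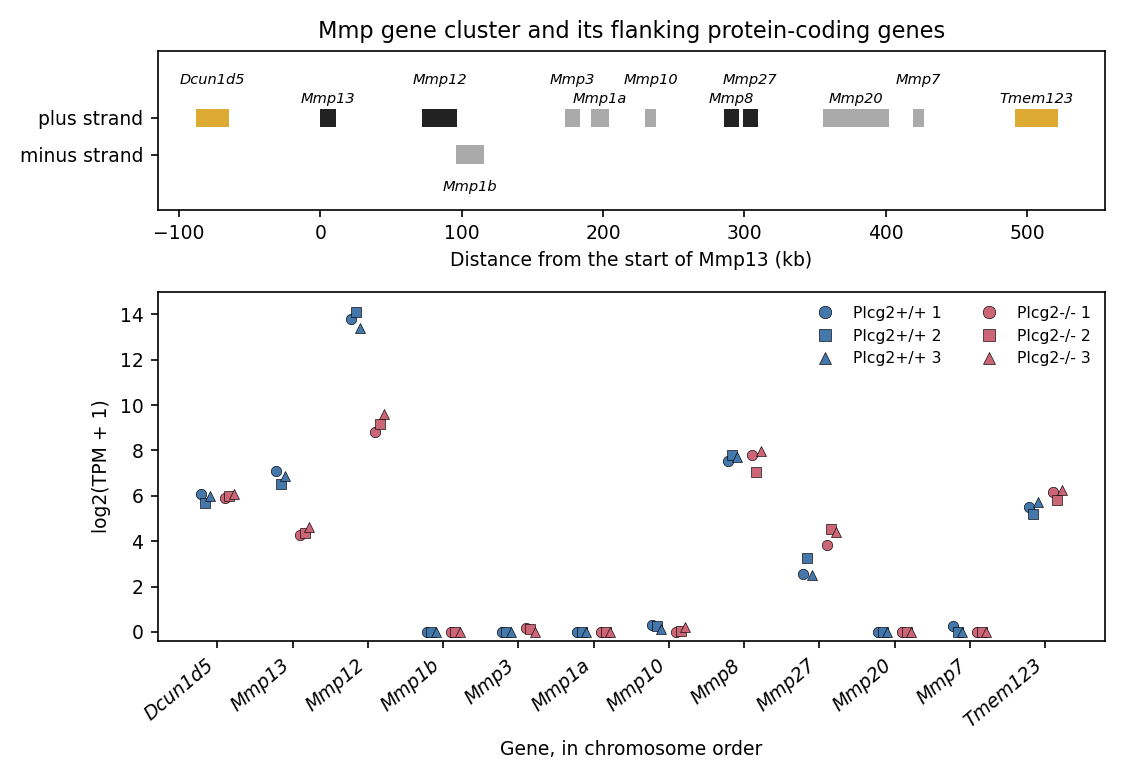
Top, the 10 Mmp genes of the cluster (members black, others grey) and the flanking protein-coding genes (yellow), by strand and distance in kb from the start of Mmp13; bottom, the log2(TPM + 1) level of each gene in the 6 libraries, in chromosome order. Mmp13 and Mmp12 are lower and Mmp27 is higher in Plcg2-/-, with Mmp8 between them at a similar level in both genotypes.

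The 150 bases before each RefSeq transcription start of the 4 cluster members (build GRCm38.p6, plus strand) are shown because these neighbours had different patterns. The table holds 2 starts for Mmp12. Capitals mark matches, on either strand, to the AP-1 motif TGANTCA, the TATA box TATAAA, the ETS motif AGGAAG and the RUNX motif TGTGGT; AP-1 and RUNX factors are known activators of the Mmp13 gene.
Mmp13, chr9:7272364-7272513: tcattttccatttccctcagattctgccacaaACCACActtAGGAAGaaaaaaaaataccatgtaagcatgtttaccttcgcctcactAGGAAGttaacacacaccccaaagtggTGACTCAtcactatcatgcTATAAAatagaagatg
Mmp12 upstream start, chr9:7344247-7344396: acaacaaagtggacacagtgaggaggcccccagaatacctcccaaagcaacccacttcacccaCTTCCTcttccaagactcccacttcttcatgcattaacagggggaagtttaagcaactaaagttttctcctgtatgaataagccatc
Mmp12 downstream start, chr9:7347224-7347373: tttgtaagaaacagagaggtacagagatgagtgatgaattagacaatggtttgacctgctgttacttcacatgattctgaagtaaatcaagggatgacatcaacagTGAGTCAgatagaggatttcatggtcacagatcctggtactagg
Mmp8, chr9:7558279-7558428: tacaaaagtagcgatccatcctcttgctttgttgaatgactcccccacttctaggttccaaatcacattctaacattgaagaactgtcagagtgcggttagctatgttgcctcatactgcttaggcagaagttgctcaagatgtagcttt
Mmp27, chr9:7571246-7571395: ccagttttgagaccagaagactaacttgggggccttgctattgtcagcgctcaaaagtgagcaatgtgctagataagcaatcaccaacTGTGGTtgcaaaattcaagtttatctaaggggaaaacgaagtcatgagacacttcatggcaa

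An AP-1 match lay 35 to 29 bases before the start of Mmp13 and 44 to 38 bases before the downstream start of Mmp12. The table held 7 of the 9 genes with 8 starts, and of these 8 only these 2 had an AP-1 match within 250 bases before the start. Adamts1, also lower in Plcg2-/-, had no AP-1 match in that window. Mmp19, which was lower too, and Mmp2 had no entry. Over all 32851 starts of the table, 6.75% had one in the same window, 12.4% a TATAAA match, 29.5% an AGGAAG match and 14.1% a TGTGGT match. In the 150 bases printed, Mmp8 had no match to any of the 4 motifs and Mmp27 had 1, to the RUNX motif. In that shorter window, 4.24% of all starts had an AP-1 match, 7.57% a TATAAA, 19.7% an AGGAAG and 8.4% a TGTGGT match. Within 250 bases, Mmp8 had 1 ETS match, 220 to 215 bases before its start. A match is a string of letters and not a measured binding site, and the gene-level TPM cannot tell the Mmp12 starts apart.

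The genes whose levels followed Mmp12 most closely over the 6 libraries, out of 11039 other protein-coding genes tested, were Tspan13, Adra2c, Itgax, Slc2a1 and Dok7, with Pearson correlations of log2(TPM + 1) of 0.999, 0.999, 0.998, 0.998 and 0.998. These correlations mostly reflect the step between genotypes, and 6 libraries in 2 groups give them little precision. Like Mmp12, by which they were picked, all 5 were highest in Plcg2+/+ 2 and in Plcg2-/- 3 within their genotypes; Itgax, the integrin CD11c, had 368 and 17.2 TPM there.

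The rest of the metalloproteinase system was read from 6 lists with 70 further genes, which include the other Mmp, Timp, ADAM and ADAMTS genes, the plasminogen system and partners on the cell surface. Since the 9 genes had been taken out of these families with their values known, the remainder is not a random sample of them. Of the 70 genes, 24 had a mean of at least 1 TPM and were tested. Of these, 2 rose and 7 fell in Plcg2-/- microglia (limma, adjusted p below 0.05), against 15.6% higher and 5.31% lower among all 12652 genes tested. After median-of-ratios scaling the listed counts were again 2 and 7, while those over all genes moved from 1971 higher and 672 lower to 999 and 916, so nothing is read from the listed counts against that background. The median log2 difference of the 24 genes was -0.17, beside 0.19 over all genes tested. With the replicate number as a block, 4 rose and 9 fell. Leaving out Plcg2-/- 1 gave 1 and 4, leaving out Plcg2+/+ 2 gave 2 and 4, and leaving out Plcg2-/- 3 gave 1 and 5. At a mean of at least 5 TPM, which removes Timp1 and Adam19, the counts were 1 and 6. Timp1 and Adam19 had reached the limit of 1 TPM only through the genotype in which each was higher.

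None of the 16 other Mmp genes reached the limit for testing, and the highest value among them was 1.27 TPM, for Mmp25 in Plcg2-/- 1. Mmp9, the second gelatinase, stood at 0.582, 0.942 and 0.459 TPM in Plcg2+/+ and at 0.205, 0.143 and 0.174 TPM in Plcg2-/- libraries. Mmp25 went the other way, at 0.399, 0.2285 and 0.198 TPM in Plcg2+/+ and at 1.27, 0.588 and 0.720 TPM in Plcg2-/- libraries. Both genes were singled out after their values were seen. Of the 5 other inhibitors, Timp1 was tested and fell. It stood at 1.41, 2.13 and 2.27 TPM in Plcg2+/+ and at 0.116, 0.295 and 0.330 TPM in Plcg2-/- libraries, a log2 difference of -1.23 ± 0.23 (SE; limma adjusted p = 0.0150, 0.0553 without Plcg2-/- 1). It reached the limit for testing only through its Plcg2+/+ values, and without Plcg2+/+ 2 or 3 it did not reach it. With no filter on low values its limma adjusted p was 0.0199. That fit used the same values with a smaller SE (0.184 against 0.235), so it is no separate support. Timp3, Timp4, Reck and A2m reached at most 0.462 TPM in any library. Of 18 other ADAMTS genes only Adamts10, whose product associates with fibrillin, was tested and is named for that reason, at 33.6 ± 6.33 TPM in Plcg2+/+ against 27.3 ± 2.24 TPM in Plcg2-/- (SD, n = 3 each; limma adjusted p = 0.242).

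Of 12 ADAM genes, which encode membrane-anchored sheddases and adhesion proteins, 8 were tested, 1 rose and 1 fell. Adam8, a protease of activated leukocytes, fell from 321, 410 and 184 TPM to 39.0, 135 and 72.8 TPM, a log2 difference of -1.98 ± 0.47 (SE; limma adjusted p = 0.0291). It missed the threshold with no filter on low values (limma adjusted p = 0.0771) and without Plcg2+/+ 1, Plcg2+/+ 2, Plcg2-/- 1 or Plcg2-/- 3 (limma adjusted p = 0.0903, 0.0871, 0.0756 and 0.0821). Adam19 rose from 0.0602, 0.478 and 0.1602 TPM to 2.17, 1.86 and 1.85 TPM (limma adjusted p = 0.0127). It reached the limit for testing only through its Plcg2-/- values, and did not reach it when any Plcg2-/- library was left out. With no filter on low values its limma adjusted p was 0.0169. That fit used the same values with a smaller SE (0.18 against 0.232), so it is no separate support. The sheddase genes Adam10 and Adam17 did not pass, at 61.8 ± 1.67 and 108 ± 4.86 TPM in Plcg2+/+ and 56.2 ± 9.03 and 113 ± 10.4 TPM in Plcg2-/- (SD, n = 3 each; limma adjusted p = 0.463 and 0.711). Adam9 did not pass either, with 52.8 ± 6.13 and 69.9 ± 11.8 TPM (SD, n = 3 each; limma adjusted p = 0.119, 0.0455 without Plcg2-/- 2). Of 17 alternative fits, Adam9 missed the threshold in the other 16, among them median-of-ratios scaling (limma adjusted p = 0.380). Adam15 had the same outlying library as Mmp14: it stood at 261, 275 and 265 TPM in Plcg2+/+ and at 152, 283 and 163 TPM in Plcg2-/- libraries. Its limma adjusted p was 0.184 over all libraries and 0.0130 without Plcg2-/- 2. Adam15 missed the threshold in the other 16 alternative fits.

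Of 11 genes of precursor activation and the plasminogen system, 7 were tested, 1 rose and 1 fell. Plau, which encodes the urokinase that turns plasminogen into plasmin, fell from 505, 355 and 427 TPM to 158, 126 and 152 TPM, a log2 difference of -1.55 ± 0.16 (SE; limma adjusted p = 0.00181). Its receptor gene Plaur had 272, 226 and 308 TPM in Plcg2+/+ and 202, 129 and 196 TPM in Plcg2-/- libraries. It did not pass (limma adjusted p = 0.0735), but did with the replicate block (limma adjusted p = 0.0222) and after median-of-ratios scaling (limma adjusted p = 0.0351). Plaur passed in 5 of 17 alternative fits and missed the threshold in 12, among them no filter on low values (limma adjusted p = 0.154). Pcsk7, a proprotein convertase, rose from 20.9 ± 1.76 to 35.8 ± 3.03 TPM (SD, n = 3 each; limma adjusted p = 0.00754). Furin, the convertase that removes the Mmp14 propeptide, had 53.6 ± 11.3 TPM in Plcg2+/+ against 79.1 ± 14.3 TPM in Plcg2-/- (SD, n = 3 each; limma adjusted p = 0.0815, 0.0155 with the replicate block and 0.0394 without Plcg2+/+ 3). In 14 of 17 alternative fits Furin did not pass, among them median-of-ratios scaling (limma adjusted p = 0.175) and quantile normalization (limma adjusted p = 0.294).

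Of 8 genes of surface partners and clearance, 7 were tested, 4 fell and 3 did not pass. Lrp1, an endocytic receptor that clears Mmp and Timp complexes, fell from 911, 1132 and 1026 TPM to 388, 615 and 515 TPM (limma adjusted p = 0.0135). Cav1, the caveolin gene, fell from 25.6 ± 5.69 to 4.30 ± 1.82 TPM and Itgav, an integrin chain, from 80.2 ± 16.9 to 29.9 ± 5.53 TPM (SD, n = 3 each; limma adjusted p = 0.00322 and 0.00556). Itgb3, the partner chain of Itgav, fell from 15.1, 10.3 and 4.17 TPM to 1.87, 3.89 and 1.96 TPM with a limma adjusted p of 0.0492. That call is fragile. Leaving out Plcg2+/+ 1 or 2 gave a limma adjusted p of 0.127 or 0.137, and leaving out Plcg2-/- 1, 2 or 3 gave 0.152, 0.0520 or 0.136. It was 0.0508 after median-of-ratios scaling. Cd44, a hyaluronan receptor that docks metalloproteinases, had 111 ± 19.2 TPM in Plcg2+/+ against 79.6 ± 22.8 TPM in Plcg2-/- (SD, n = 3 each; limma adjusted p = 0.151, 0.0321 with the replicate block and 0.0390 after quantile normalization). In 14 of 17 alternative fits Cd44 did not pass, among them median-of-ratios scaling (limma adjusted p = 0.0671). Bsg, an inducer of metalloproteinases, stood at 371 ± 27.4 and 353 ± 35.0 TPM (SD, n = 3 each; limma adjusted p = 0.698).

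**Figure D4:**
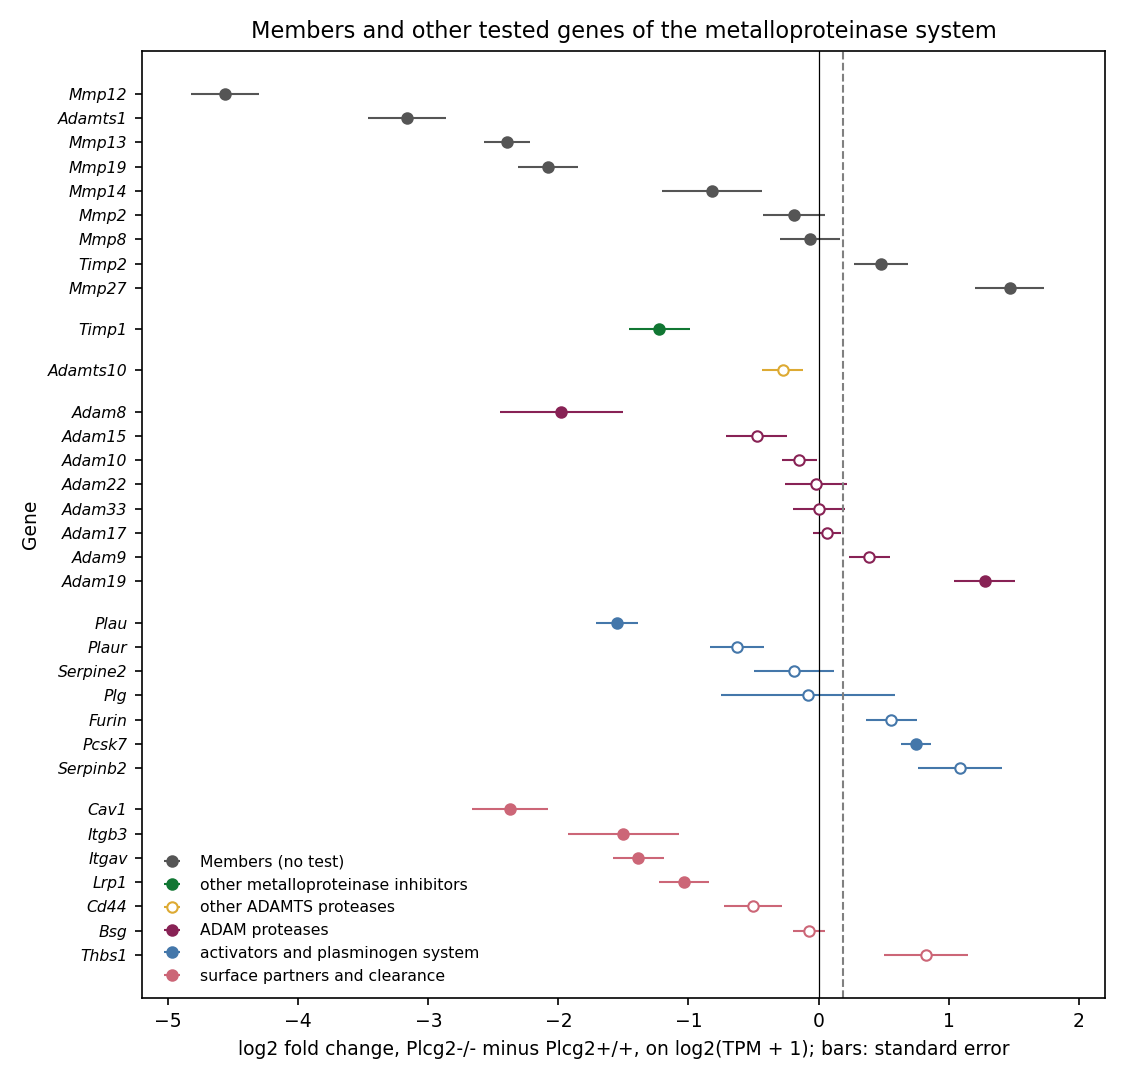
Log2 difference between Plcg2-/- and Plcg2+/+ on the log2(TPM + 1) scale, with its standard error, for the 9 members and the 24 tested genes of the other lists. Filled symbols outside the members mark a limma adjusted p below 0.05, the dashed line is the median of all tested genes at 0.19, and the members range from -4.57 for Mmp12 to 1.47 for Mmp27.

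Markers of other cell types were compared in the same libraries. The 10 astrocyte markers summed to 30.4 to 60.6 TPM in Plcg2+/+ against 43.2 to 59.8 TPM in Plcg2-/- libraries, the 7 oligodendrocyte-lineage markers to 46.5 to 115 and 55.3 to 92.4 TPM, and the 8 neuron markers to 3.94 to 14.7 and 5.72 to 12.0 TPM. The 8 endothelial markers summed to 16.4 to 24.1 and 19.8 to 29.2 TPM, and the 10 neutrophil markers to 20.2 to 76.3 and 26.2 to 48.1 TPM. These sums overlapped between genotypes, but single markers within them did not. Kdr and Flt1, the 2 endothelial markers above 5 TPM, lay apart in opposite directions, with 4.29 to 7.09 TPM in Plcg2+/+ and 16.0 to 24.1 TPM in Plcg2-/- for Kdr and with 9.34 to 16.0 and 2.80 to 4.32 TPM for Flt1. The astrocyte marker Aldh1l1 had 9.23 to 16.0 TPM in Plcg2+/+ and 19.6 to 36.9 TPM in Plcg2-/- libraries. The 8 mural markers summed to 9.89 to 16.8 TPM in Plcg2+/+ against 2.38 to 4.00 TPM in Plcg2-/- libraries, of which Cspg4 alone, the only one of the list above 5 TPM, had 6.72 to 13.1 and 0.239 to 0.821 TPM. The 12 microglial markers summed to 3432 to 5918 and 3714 to 6579 TPM, but not all in the same direction: Itgam, the integrin CD11b, had 359 to 511 TPM in Plcg2+/+ against 70.1 to 99.97 TPM in Plcg2-/- libraries, while C1qb, a complement gene, had 154 to 549 and 680 to 1554 TPM. The part of other cells in the members' levels was not tested.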

How the data were processed

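Poly(A) RNA of 6 microglia libraries was sequenced as 150-bp paired-end reads, per the labels. The authors deposited TPM per gene. Salmon 1.3.0, DESeq2 1.30.1, R 4.0.4 and build GRCm38.p6 are named in the submitters' processing notes, without further detail of the steps. TPM do not keep the reads per gene, so no count model was used, and a change in a few abundant transcripts moves all others. Positions came from GENCODE M21, which held 54094 of the 54347 identifiers.

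Genes with a mean of at least 1 TPM (12652) were fitted together as log2(TPM + 1) with limma 3.58.1 (R 4.3.3; moderated variance with a trend), Plcg2-/- against Plcg2+/+, with Benjamini-Hochberg adjustment over all of them and a threshold of 0.05. The code was run on simulated data with independent noise. Those data held no shift in composition, no sex imbalance and no pairing, so the run does not show how these affect the calls. A fold change on this scale understates that of low genes. The members and the gene lists were chosen with earlier results of these data known. Named beside the members are Plcg2, listed genes that passed the test or had a mean of at least 50 TPM in either genotype, the genes of the cluster, and the 5 genes most correlated with Mmp12. The sources used here do not say whether replicates are separate cultures, so p-values measure the spread between these samples. Same-numbered libraries deviated together weakly (correlations 0.295, 0.193 and 0.147), against -0.195 to 0.00369 for libraries with different numbers. Deviations around a mean of 3 libraries are not independent, and the labels do not say that the numbers pair libraries. Xist and Y-linked levels did not match within a number. Whether the numbers mark pairs is therefore unknown, and a fit with the number as a block was only an alternative. Promoters came from RefSeq on GRCm38.p6.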

Additional observations from a re-analysis of the deposited data

How the results depend on the processing

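Over 17 alternatives, the log2 differences of Mmp12 (-4.77 to -4.38), Adamts1 (-3.54 to -2.90), Mmp13 (-2.65 to -2.25), Mmp19 (-2.35 to -1.91), Mmp14 (-1.30 to -0.52), Mmp27 (1.28 to 1.71) and Timp2 (0.22 to 0.68) kept their sign, as did Mmp2 (-0.36 to -0.06) in the 16 that included it. Mmp8 reversed to 0.03 with the log2 of the summed Y-linked level in the fit as a covariate, an alternative chosen after seeing the data, and spanned -0.24 to 0.20 when 1 library was left out, reversing without Plcg2-/- 2. The cause was not tested.

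Over all genes, the 1971 higher calls became 1226 with no filter, 999 with median-of-ratios scaling, 959 with quantile normalization, 1222 rescaled without mitochondrially encoded genes, 1236 with the replicate block and median-of-ratios scaling together, 941 with the Y-linked covariate, and 618 (without Plcg2-/- 1) to 2150 (without Plcg2+/+ 3) with 1 library left out. The 672 lower calls became 1031 with quantile normalization, 1063 with the replicate block and median-of-ratios scaling, 411 with the Y-linked covariate, and 308 (without Plcg2-/- 1) to 648 (without Plcg2+/+ 3) with 1 library left out. The replicate block alone gave 2483 higher and 815 lower.

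Of the listed genes, the 2 higher calls became 1 at a mean of at least 5 TPM, 4 with the replicate block with or without median-of-ratios scaling, and 1 to 3 with 1 library left out. The 7 lower calls became 4 to 7 with 1 library left out, 9 with the replicate block, 9 with quantile normalization and 10 with the block and median-of-ratios scaling. The causes were not tested. TPM do not give the reads behind a gene, so counting error at low genes such as Mmp2 is unknown, and with 3 libraries per genotype 1 library can decide a call.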
